A study of Ovis aries with 12 samples.

Results

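The isocitrate dehydrogenase family is the set of enzymes that turn isocitrate into alpha-ketoglutarate. Its 5 genes, IDH1, IDH2, IDH3A, IDH3B and IDH3G, were taken by symbol from a table of 21257 genes measured in sheep muscle, and all 5 were found and passed the filter on low counts. The family was selected on IDH1, which was chosen by its measured level: it was lower in every library from succinate-fed sheep than in every control library. Its difference from control is therefore given as a description, with no test, while the other 4 members and all differences among the succinate diets were tested.

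IDH1 encodes the NADP-dependent enzyme of the cytosol and peroxisomes, and IDH2 its mitochondrial counterpart. Both make NADPH, which serves lipid synthesis and the repair of oxidative damage. IDH3A, IDH3B and IDH3G encode the subunits of the NAD-dependent mitochondrial enzyme, which performs the isocitrate step of the TCA cycle. Succinate, the feed additive of the study, is an intermediate of the same cycle a few steps further on.

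RNA was sequenced from the longissimus dorsi, a long back muscle, of 5-month-old sheep of the Tan breed (Ovis aries). In the feeding trial, 36 sheep were split at random over 4 diets with 9 sheep each, penned singly, and fed for 60 days after a pretrial period of 10 days. The control animals received a basal diet, and the others received that basal diet with succinate added at 0.5% (SUC1), at 1% (SUC2) or at 2% (SUC3). Each diet is represented by 3 libraries, 12 in all; the labels do not say if a library came from a single sheep or from pooled sheep. The p-values therefore cover the spread between libraries, part of which may be technical.

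Library totals ran from 15742428 to 18564057 counts. The muscle label was borne out by the markers: the summed level of 11 fast-fibre genes was 75152 to 135914 CPM (counts relative to the library total, corrected by TMM factors) and that of 10 slow-fibre genes 8182 to 23558 CPM, against 183 to 551 CPM for 9 adipocyte genes and 17.8 to 55.8 CPM for 7 macrophage and immune genes. No library was a copy of another. On the first principal component of all genes SUC2 replicate 3 was at 51.6. On the second, SUC2 replicate 2 was at 55.1 and SUC3 replicate 1 at -52.1. These 3 lay farthest out. The control libraries lay from -44.9 (replicate 2) to -27.3 (replicate 1) on the first component, and the succinate libraries from -7.39 to 51.6. Control replicate 1 held 23330 CPM of slow-fibre transcripts, inside the succinate range of 13198 to 23558 CPM. The other control libraries held 8182 and 11271 CPM. Control replicate 1 and the 3 libraries farthest out are the 4 said below to stand apart, while control replicate 2 was kept. The fold changes, correlations and subunit ratios of the members were also computed without these 4 libraries, an alternative chosen after seeing the data. It leaves 2 control, 3 SUC1, 1 SUC2 and 2 SUC3 libraries, and the lone SUC2 library (replicate 1) is assumed to vary like the other groups. In bulk muscle, fewer cells of a type and less RNA per cell cannot be told apart.

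In the deposited coordinates IDH1 (GeneID 443257) lies on chromosome 2 from 210312166 to 210332222 on the minus strand. IDH2 lies on chromosome 18 from 20799735 to 20816927 on the minus strand, and IDH3A on the same chromosome from 28360270 to 28377672 on the plus strand. IDH3B lies on chromosome 13 from 52242549 to 52247494 and IDH3G on chromosome X from 80490226 to 80498754, both on the plus strand. The build is not named in the table. No gene of the table overlaps IDH1, IDH2 or IDH3G. IDH3A shares 8540 bases with ACSBG1, which lies on the opposite strand and had 0 to 3 counts per library, and IDH3B shares 9 bases with NOP56, also on the opposite strand. Strand use in counting is not stated, so reads from such overlaps cannot be assigned.

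Scaled for gene length, the mitochondrial members were far more abundant than IDH1. In control muscle the mean length-scaled level (FPKM, counts scaled for gene length and library total, divided by the TMM factor) was 198 ± 59.9 for IDH3B, 169.9 ± 30.3 for IDH3G, 107 ± 8.92 for IDH2, 83.4 ± 28.7 for IDH3A and 8.79 ± 1.54 for IDH1 (SD, n = 3). Within a library, IDH3A was above IDH1 in 12 of 12 libraries, IDH2 above IDH3A in 11 and IDH3G above IDH2 in 11. The top pair was not separated: IDH3B lay above IDH3G in 8 of 12 libraries, 3 of 3 control and 5 of 9 succinate libraries. IDH1 supplied 1.59% ± 0.34 of the family's length-scaled level in control and 0.50% ± 0.11 in SUC2 (SD, n = 3). Counting error limits the precision of IDH1 most: its 104 to 526 counts per library carry a counting error of 4.36% to 9.81%, against 1.25% to 2.02% for the other members.

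**Figure D1:**
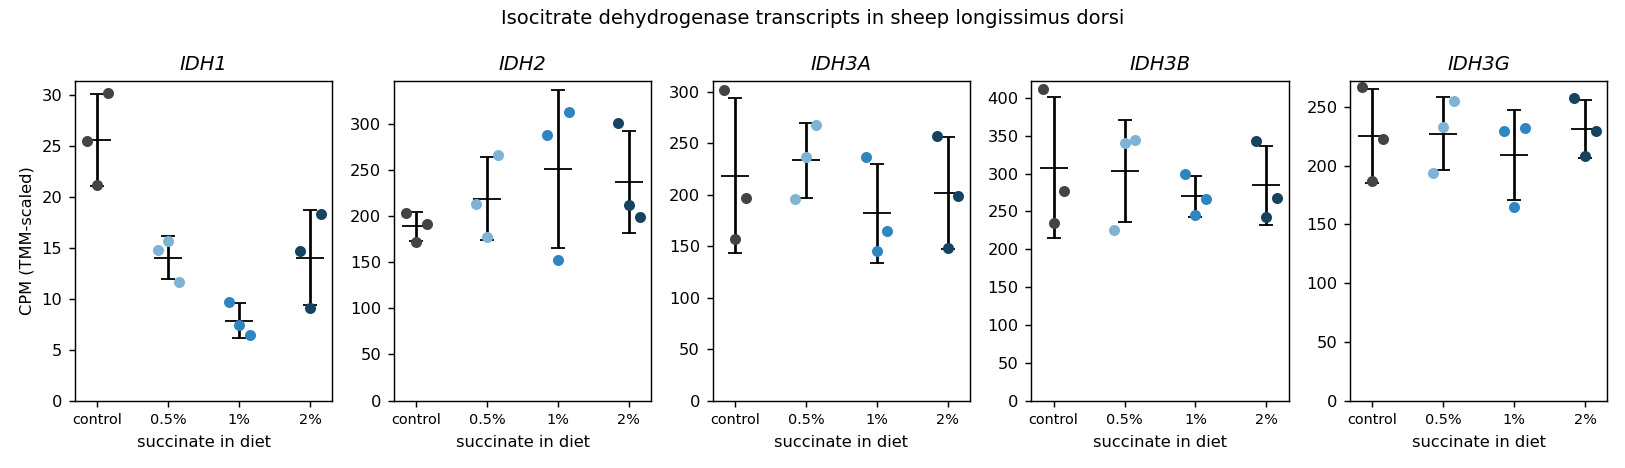
Level of each family member by diet, in CPM (TMM-scaled, linear axes starting at 0). Points are libraries, wide bars the mean and whiskers 1 SD over 3 libraries. IDH1 runs from 21.2 to 30.1 CPM in control and from 6.41 to 18.3 CPM in the succinate libraries, while the points of the other members overlap between control and every succinate diet.

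IDH1, the cytosolic and peroxisomal enzyme, was 2.14-fold lower on average in muscle of succinate-fed sheep than in control muscle, and lowest with 1% succinate. Its control levels were 25.4, 21.2 and 30.1 CPM in replicates 1, 2 and 3, from 369, 389 and 526 counts. With 0.5% succinate they were 14.8, 15.6 and 11.6 CPM, with 1% succinate 9.72, 7.38 and 6.41 CPM, and with 2% succinate 14.6, 9.07 and 18.3 CPM. No succinate library reached the control range, SUC2 was lowest as a group, and SUC3 was the most scattered, with its replicate 2 inside the SUC2 range and its replicate 3 nearest to control. The gap that defined the choice was narrow, since the highest succinate library (18.3 CPM) and the lowest control library (21.2 CPM) differed by a factor of 1.16.

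The group means of IDH1 were 25.6 ± 4.49 CPM without succinate, 14.0 ± 2.10 CPM with 0.5%, 7.84 ± 1.70 CPM with 1% and 14.0 ± 4.65 CPM with 2% (SD, n = 3), and 11.9 ± 4.09 over the 9 succinate libraries. Control thus exceeded SUC1 by 1.83-fold, SUC2 by 3.26-fold and SUC3 by 1.83-fold. The fitted log2 fold changes against control were -0.87 ± 0.26 (SE) in SUC1, -1.70 ± 0.26 in SUC2, -0.87 ± 0.26 in SUC3 and -1.15 ± 0.20 for the 3 diets pooled. The pooled value was -1.27 to -1.01 when single libraries were left out and -1.06 without the 4 libraries named above. A lack of overlap with control, in the lower direction, held for 6.81% of all genes tested in SUC1, 10.7% in SUC2 and 8.88% in SUC3. Of all 13319 genes tested, 1.46% had all 9 succinate libraries below all 3 control libraries and 1.69% had all 9 above, so IDH1 was among the 195 genes with the lower pattern. The median log2 fold change of all genes was -0.01 for the pooled diets.

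**Figure D2:**
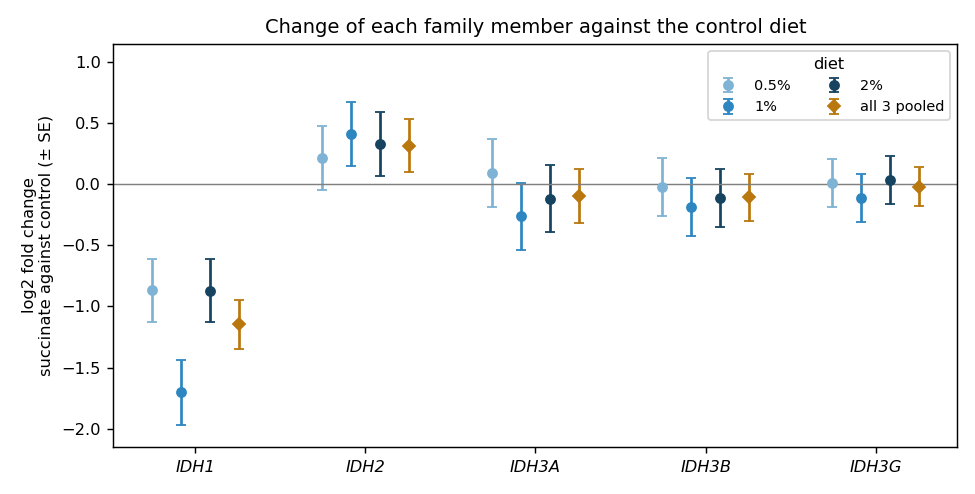
Fitted log2 fold change of each member against control, for 0.5%, 1% and 2% succinate and the 3 diets pooled. Circles and diamonds are estimates and bars are 1 standard error (edgeR). IDH1 lies between -1.70 and -0.87 and IDH2 between 0.21 and 0.41. With 1% succinate IDH3A lies at -0.26, IDH3B at -0.19 and IDH3G at -0.11. For the pooled diets these subunits lie at -0.09, -0.11 and -0.02.

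The choice of IDH1 did not use differences among the succinate diets, though it held every succinate library below the control range. Among these diets the mean of IDH1 was not in the order of the dose. IDH1 was lower in SUC2 than in SUC1 by a log2 difference of -0.84 ± 0.26 (SE) with no overlap of libraries, and the adjusted p was 0.429 (edgeR quasi-likelihood test, unadjusted p = 0.00713). A lack of overlap in this direction was seen for 6.43% of all genes. SUC3 exceeded SUC2 by 0.83 ± 0.26 with overlapping libraries (edgeR adjusted p = 0.256), and SUC3 and SUC1 differed by -0.00 ± 0.26 (edgeR adjusted p = 0.999). Neither difference involving SUC2 passed. Without the 4 libraries they were -0.53 for SUC2 against SUC1 and 0.49 for SUC3 against SUC2, where SUC2 rests on its replicate 1 alone, its highest library for IDH1. The slope of IDH1 per 1% succinate over the 9 libraries was 0.09 ± 0.23 on the log2 scale (edgeR adjusted p = 0.964). None of the 5 members was called in any comparison among the succinate diets by edgeR, where the share of all genes called was 0.0% for SUC2 against SUC1, 0.0% for SUC3 against SUC1, 0.015% for SUC3 against SUC2 and 0.0% for the slope. DESeq2 and limma-trend called none of them either.

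The genes whose levels tracked IDH1 most closely over the 12 libraries, among 8608 genes with a mean of at least 5 CPM, were RCSD1 (r = 0.959), SLC2A12 (r = 0.955), CNST (r = 0.940), ZMYM4 (r = 0.939) and TTC23 (r = 0.928). RCSD1 encodes an actin-capping regulator and SLC2A12 the glucose transporter GLUT12. RCSD1 was at 113 ± 10.1 CPM in the 3 control libraries and 44.0 ± 21.4 CPM in the 9 succinate libraries, and SLC2A12 at 16.5 ± 2.62 and 8.70 ± 4.07 CPM. All 5 have the control-against-succinate step of IDH1, which the choice of IDH1 fixes in part. The other members of the family were far down this ranking, with IDH3A at rank 1658 and IDH2 at rank 6489. The nearest gene on the chromosome, PIKFYVE, 16021 bases away, was at 14.8 ± 0.83 CPM in control and 17.0 ± 3.90 CPM in succinate libraries (pooled log2 fold change 0.20, edgeR adjusted p = 0.688).

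IDH2, the mitochondrial NADP-dependent enzyme, lay on the other side of control from IDH1 on average and was not called in any diet. Its control levels were 203, 172 and 191 CPM. With 0.5% succinate they were 213, 177 and 266 CPM, with 1% succinate 288, 153 and 312 CPM, and with 2% succinate 300.5, 212 and 199 CPM. The control libraries were close together and every succinate diet overlapped them; SUC2 replicate 2 was the lowest library of all, while SUC2 replicates 1 and 3 and SUC3 replicate 1 were the highest.

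The means of IDH2 were 189 ± 15.8 CPM without succinate, 219 ± 44.8 CPM with 0.5%, 251 ± 86.0 CPM with 1% and 237 ± 55.3 CPM with 2% (SD, n = 3). The log2 fold changes were 0.21 ± 0.26 (SE) in SUC1 (edgeR adjusted p = 0.932), 0.41 ± 0.26 in SUC2 (0.454), 0.33 ± 0.26 in SUC3 (0.643) and 0.32 ± 0.22 for the pooled diets (0.545). The SUC2 value was 0.67 without SUC2 replicate 2 and 0.22 without SUC2 replicate 3, the SUC1 value was 0.05 without SUC1 replicate 3 and 0.34 without SUC1 replicate 2, and the SUC3 value was 0.12 without SUC3 replicate 1. Without the 4 libraries the values were 0.27 in SUC1, 0.67 in SUC2 (its replicate 1 alone), 0.18 in SUC3 and 0.37 ± 0.19 (SE) for the pooled diets (edgeR adjusted p = 0.431). A p above the threshold does not show that IDH2 was equal between diets. The neighbouring ZNF710, 1712 bases from IDH2, was at 5.51 ± 0.84 CPM in control and 6.87 ± 1.62 CPM in succinate libraries (pooled log2 fold change 0.31, edgeR adjusted p = 0.593).

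The genes that tracked IDH2 most closely were PTPRB (r = 0.961), KLF7 (r = 0.952), GRK5 (r = 0.948), MAF (r = 0.926) and SEPTIN9 (r = 0.924). PTPRB encodes a receptor phosphatase of endothelial cells. The summed level of 7 endothelial marker genes was 269, 274 and 315 CPM in the control libraries. It was 323, 309 and 458 CPM in SUC1, 379, 277 and 568 CPM in SUC2 and 718, 356 and 406 CPM in SUC3, so the low library of IDH2 (SUC2 replicate 2) was also the lowest succinate library of this sum and the 2 highest libraries of the sum were among the 3 highest of IDH2. Of the 7 endothelial genes 6 had a positive pooled fold change, none was at 0 and none was called by edgeR, while DESeq2 called PECAM1 and TEK higher in the pooled diets and in SUC2, and CLDN5 in SUC3. IDH2 and the endothelial sum had r = 0.844 over the 12 libraries and 0.750 over the 8 left without those that stand apart, a relation chosen after the values had been seen; whether vascular cells contribute to the IDH2 level was not tested beyond it.

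The share of IDH1 in the NADP-dependent transcripts was lower in succinate libraries than in control libraries. IDH1 made up 7.07%, 6.97% and 8.75% of the length-scaled sum of IDH1 and IDH2 in the control libraries. It made up 4.04%, 5.09% and 2.59% in SUC1, 2.01%, 2.86% and 1.23% in SUC2, and 2.87%, 2.54% and 5.30% in SUC3. Every succinate library lay below every control library, as the choice of IDH1 largely fixes, so the share is a description with no test. Without the 4 libraries it was 6.97% to 8.75% in the 2 control libraries and 2.01% to 5.30% in the 6 succinate libraries. The sum itself was 115.5 ± 9.90 FPKM without succinate, 128 ± 24.6 FPKM with 0.5%, 145 ± 48.7 FPKM with 1% and 139 ± 31.3 FPKM with 2% (SD, n = 3), so the total of the NADP-dependent transcripts was not lower on average in any succinate diet. In control muscle IDH2 exceeded IDH1 by 12.3 ± 1.63 times, and in SUC2 by 54.3 ± 23.6 times.

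**Figure D3:**
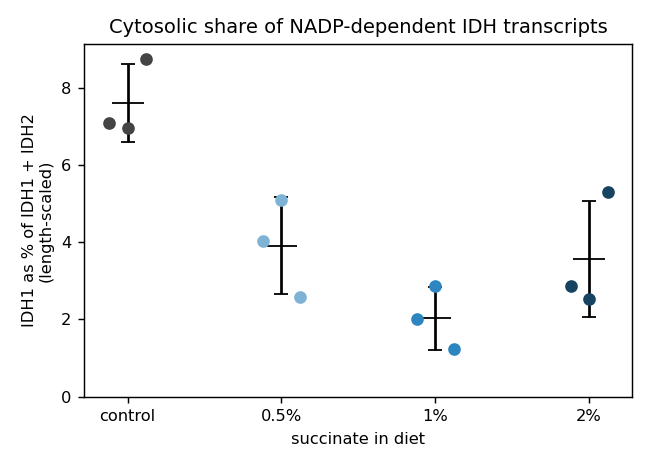
IDH1 as a percentage of the length-scaled sum of IDH1 and IDH2, by diet (linear axis starting at 0). Points are libraries, wide bars the mean and whiskers 1 SD over 3 libraries. Control libraries lie between 6.97% and 8.75% and succinate libraries between 1.23% and 5.30%.

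IDH3A encodes the catalytic subunit of the NAD-dependent enzyme. Its levels were 302, 157 and 197 CPM in control, 196, 236.5 and 268 CPM in SUC1, 236.5, 145 and 165 CPM in SUC2 and 257.5, 148 and 199 CPM in SUC3. Control replicate 1 was the highest library of all and the other 2 control libraries lay inside the succinate range, so the groups overlapped throughout. The pooled log2 fold change was -0.09 ± 0.22 (SE; edgeR adjusted p = 0.893) and that of SUC2 was -0.26 ± 0.28 (edgeR adjusted p = 0.678).

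IDH3B encodes a non-catalytic subunit of the enzyme. Its levels were 412, 234 and 276 CPM in control, 225, 340 and 344 CPM in SUC1, 299, 246 and 266 CPM in SUC2 and 343, 242 and 267 CPM in SUC3. Control replicate 1 again stood highest, and every diet overlapped control. The pooled log2 fold change was -0.11 ± 0.19 (SE; edgeR adjusted p = 0.849), and in SUC2 it was -0.19 ± 0.24 (edgeR adjusted p = 0.739).

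IDH3G encodes the regulatory gamma subunit, through which the enzyme responds to its activators. Its levels were 267, 187 and 223 CPM in control, 194, 233 and 255 CPM in SUC1, 229.5, 165 and 232 CPM in SUC2 and 257, 208 and 229 CPM in SUC3. Control replicate 1 was once more the highest and SUC2 replicate 2 the lowest. The pooled log2 fold change was -0.02 ± 0.16 (SE; edgeR adjusted p = 0.972) and that of SUC2 was -0.11 ± 0.20 (edgeR adjusted p = 0.823). IDH3G lies between SSR4 (127 bases away) and SRPK3 (40 bases away), both on the opposite strand; SRPK3, a muscle protein kinase, was at 43.5 ± 13.1 CPM in control and 29.1 ± 8.42 CPM in succinate libraries (pooled log2 fold change -0.61, edgeR adjusted p = 0.177).

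The small negative values of the IDH3 subunits turned positive without control replicate 1, and that of IDH3G also without other single libraries. Without control replicate 1 the pooled log2 fold change was 0.21 for IDH3A, 0.16 for IDH3B and 0.12 for IDH3G, and in SUC2 it was 0.04, 0.08 and 0.03. The summed level of the 14 other TCA cycle genes was likewise highest in control replicate 1 (7209 CPM, against 4718 and 5565 CPM in the other control libraries). Of IDH2 and the IDH3 subunits, 0 of 4 were called by edgeR in SUC1, SUC2, SUC3 or the pooled diets, and 0 had an unadjusted p under 0.05. DESeq2 and limma-trend also called 0. The share of all genes called by edgeR was 0.0% in SUC1, 1.43% in SUC2, 0.00751% in SUC3 and 0.0% for the pooled diets.

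**Figure D4:**
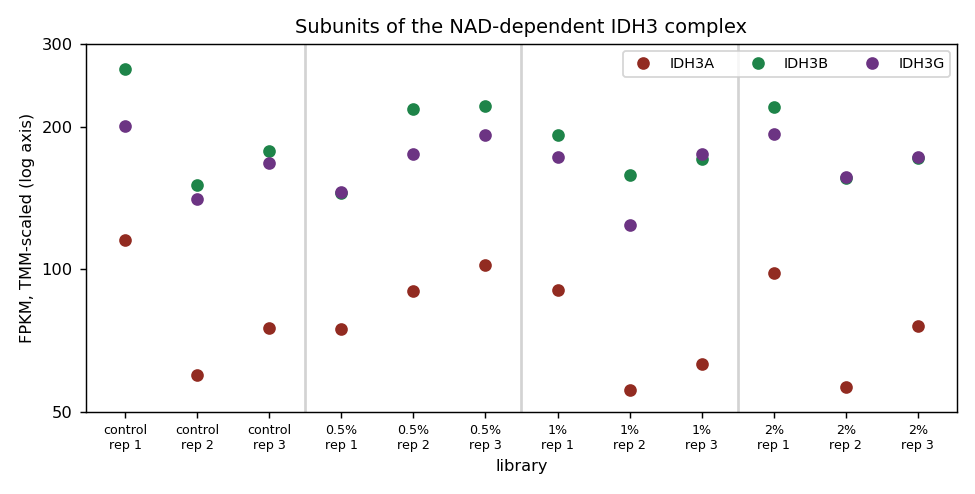
Length-scaled level (TMM-scaled FPKM, log axis) of the IDH3 subunit genes in each of the 12 libraries. Each point is a library, and grey lines separate the diets. IDH3A lies below the other subunits in every library, and the points of the subunits go up and down together from library to library, with control replicate 1 highest for each.

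The IDH3 subunits varied together. Over the 12 libraries IDH3A and IDH3B had r = 0.892 and rho = 0.888 (permutation test, adjusted p = 0.00285 for r and 0.002 for rho), IDH3A and IDH3G r = 0.831 and rho = 0.881 (adjusted p = 0.0041 and 0.002), and IDH3B and IDH3G r = 0.837 and rho = 0.895 (adjusted p = 0.0041 and 0.002), adjusted over 15 relations. Without the 2 libraries farthest from the median r was 0.813, 0.758 and 0.921, and on deviations from the diet means it was 0.905, 0.860 and 0.855. Over the 8 libraries left without those that stand apart, r was 0.847 for IDH3A and IDH3B (exact permutation test, adjusted p = 0.0714), 0.809 for IDH3A and IDH3G (0.0882) and 0.906 for IDH3B and IDH3G (0.0309). The libraries share the scaling and the composition of each muscle sample. IDH1 and IDH2 had r = -0.36 and rho = -0.43, given as a description since the step between control and succinate chose IDH1; r was -0.039 on deviations from the diet means, and without SUC2 replicate 2 r was -0.70 and rho -0.76. No pair of IDH2 with an IDH3 subunit passed over the 12 libraries. IDH2 and IDH3G had r = 0.616 and rho = 0.531 (permutation test, adjusted p = 0.0989 and 0.198), and r was 0.293 without the 2 farthest libraries. Without control replicate 1 this pair had r = 0.724 (permutation test, adjusted p = 0.0406; 0.124 for rho). Of the relations of IDH2 and the IDH3 subunits with the slow-fibre sum none passed over the 12 libraries. The largest was that of IDH3A (r = 0.619 and rho = 0.636, permutation test, adjusted p = 0.0989 and 0.114), which without SUC3 replicate 2 had r = 0.741 and rho = 0.727 (adjusted p = 0.0339 and 0.0567). The genes most like IDH3A among 8608 were RTN4IP1 (r = 0.927), DLAT, a subunit of pyruvate dehydrogenase (r = 0.925), ATP5F1B, a subunit of ATP synthase (r = 0.920), MRPS7, a mitochondrial ribosomal protein (r = 0.900), and IDH3B itself at rank 5, while IDH3G was at rank 23.

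No difference between control and succinate was detected in the proportions of the subunits. The ratio of length-scaled levels was 0.423 ± 0.0485 for IDH3A to IDH3B, 0.470 ± 0.0677 for IDH3A to IDH3G and 1.11 ± 0.118 for IDH3B to IDH3G (SD, n = 12). IDH3A transcripts were thus below IDH3B and IDH3G in all 12 libraries, with the ratio to IDH3B between 0.350 and 0.515. The pooled succinate diets differed from control by 0.01, -0.05 and -0.07 in these log2 ratios (exact two-sided permutation tests, p = 0.927, 0.782 and 0.518, each 0.927 when adjusted over 3 ratios). The smallest one-sided p that 9 against 3 libraries allow is 0.00455, and the two-sided tests used here double the smaller one-sided p. Without the 4 libraries that stand apart the differences were 0.11, 0.12 and 0.02 (6 against 2 libraries).

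Related pathways, 7 lists with 107 genes in all, were set beside the family, and edgeR called 0 of the 107 in SUC1, SUC2, SUC3 or the pooled diets. At an unadjusted p under 0.05 there were 6, 16, 12 and 13 of them, against 1014, 2378, 1658 and 1930 of all 13319 genes. DESeq2 called 1 of the 107 higher and 1 lower in SUC1, 1 and 3 in SUC2, 0 and 2 in SUC3. In the pooled diets it called 1 higher and 3 lower. Among all 13304 genes it tested, DESeq2 called 70, 841, 241 and 471, and the last is 3.54%. Among the 14 other TCA cycle genes the median pooled log2 fold change was -0.03, with 5 positive and 9 negative. CS, citrate synthase, was at -0.18 ± 0.21 (edgeR adjusted p = 0.753), OGDH, which uses alpha-ketoglutarate, at 0.24 ± 0.24 (0.713) and SDHC, a succinate dehydrogenase subunit, at -0.27 ± 0.19 (0.560). The 9 genes linked to the shuttling of citrate and alpha-ketoglutarate between mitochondria and cytosol had a median of 0.00 with 5 positive and 4 negative. Among them was MDH1, cytosolic malate dehydrogenase, at -0.24 ± 0.21 (edgeR adjusted p = 0.663).

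IDH1 makes NADPH, and other genes listed as linked to NADPH production went both ways. Of these 16 genes, not all of which make NADPH themselves, 8 had a positive and 8 a negative pooled fold change, with a median of 0.01. MTHFD1, the cytosolic folate enzyme, was at 32.1 CPM in control and 21.6, 19.4 and 18.3 CPM in SUC1, SUC2 and SUC3 (pooled log2 fold change -0.70, edgeR adjusted p = 0.0848), and DESeq2 called it lower in SUC2, SUC3 and the pooled diets. MTHFD1L, a mitochondrial folate enzyme, was at 1.02 ± 0.38 (edgeR adjusted p = 0.238) from 0.79 CPM in control, and ALDH1L1, a cytosolic folate enzyme that makes NADPH, at -0.77 (0.404). The 12 redox genes linked to NADPH, directly or through other steps, had a median of -0.07 with 5 positive and 7 negative. Among them was GLRX, a glutaredoxin, at -0.57 ± 0.35 (edgeR adjusted p = 0.488).

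**Figure D5:**
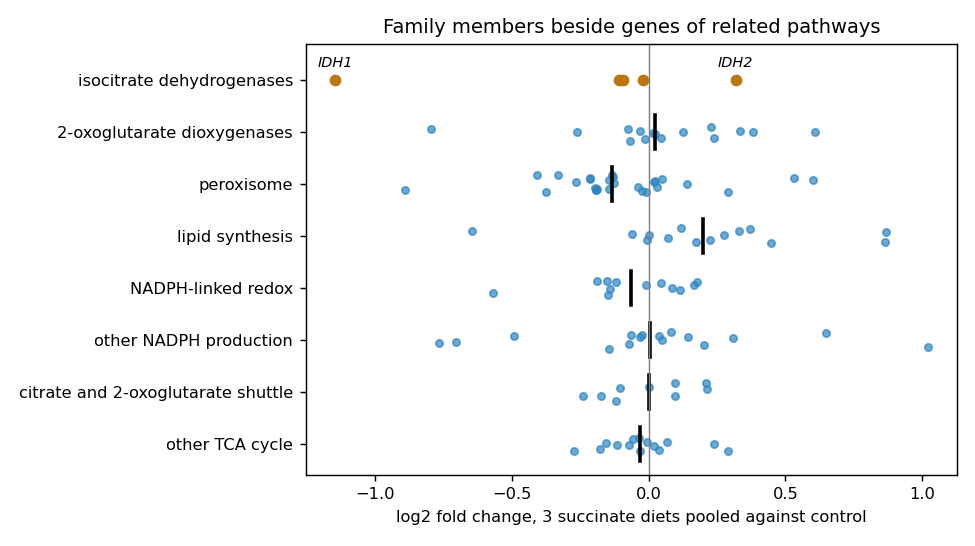
Pooled log2 fold change (3 succinate diets against control) of the 5 family members and of every gene in the lists of related pathways. Each point is a gene and black bars are list medians. IDH1 (-1.15) lies below every listed gene, a place that its choice fixes in part. The lowest listed gene is PEX10 (-0.89), and the list medians lie between -0.13 and 0.20.

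Lipid synthesis is a main cytosolic use of NADPH, and 11 of its 14 listed genes were positive in the pooled diets, with a median of 0.20. Among all genes 51.0% were negative. At an unadjusted p under 0.05 (edgeR) there were 2 of the 14, against 14.5% of all genes. The summed level of the list was 236 ± 90.2 CPM in control. It was 254 ± 25.7, 226 ± 17.8 and 243 ± 37.3 CPM in SUC1, SUC2 and SUC3. ELOVL5, a fatty acid elongase, was at 5.06 CPM in control and 10.6, 10.1 and 7.31 CPM in SUC1, SUC2 and SUC3 (pooled log2 fold change 0.87, edgeR adjusted p = 0.0848), and DESeq2 called it higher in SUC1, SUC2 and the pooled diets. INSIG1, a regulator of sterol synthesis, was at 0.86 ± 0.33 (edgeR adjusted p = 0.25) and ACACA, acetyl-CoA carboxylase, at 0.45 ± 0.22 (0.370). SCD, the stearoyl-CoA desaturase, was on the other side, at 47.5 CPM in control and 46.2, 23.6 and 25.6 CPM in SUC1, SUC2 and SUC3 (-0.65, 0.517). Beside these values, adipocyte markers stood higher: their sum was 183 to 211 CPM in control, 321 to 371 CPM in SUC1, 235 to 400.0 CPM in SUC2 and 226 to 551 CPM in SUC3. Of the 9 adipocyte genes 7 were positive, none was at 0, and none was called by edgeR. DESeq2 called ADIPOQ, FABP4, PLIN1 and LPL higher in the pooled diets, FABP4 and LPL in SUC2 (limma-trend on log2(FPKM + 1) as well) and PLIN1 in SUC3. The part of fat cells in the lipid genes was not tested.

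IDH1 is also a peroxisomal enzyme, and 19 of the 27 other peroxisome genes were negative in the pooled diets, with a median of -0.13, against 51.0% negative among all genes. The numbers were 14 of 27 with a median of -0.0020 in SUC1, 17 of 27 with -0.06 in SUC2 and 21 of 27 with -0.20 in SUC3. CAT, catalase, was at 213 CPM in control and 182, 157 and 170 CPM in SUC1, SUC2 and SUC3 (pooled log2 fold change -0.33 ± 0.13, edgeR adjusted p = 0.25). PEX10, a peroxisome assembly factor, was at 4.76 CPM in control and 2.11, 2.27 and 3.51 CPM (-0.89 ± 0.20, edgeR adjusted p = 0.0845), and DESeq2 called it lower in SUC1, SUC2 and the pooled diets. PEX16, another assembly factor, was on the other side, at 0.53 ± 0.18 (0.199).

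Alpha-ketoglutarate, the product of the family, is a cosubstrate of dioxygenases that hydroxylate proteins and demethylate histones. Of 15 such genes 9 were positive and 6 negative, with a median of 0.02. EGLN3, a prolyl hydroxylase of the hypoxia pathway, was at 194 CPM in control and 145, 109 and 88.2 CPM in SUC1, SUC2 and SUC3 (pooled log2 fold change -0.80, edgeR adjusted p = 0.132), and DESeq2 called it lower in SUC3 and the pooled diets. P4HA2, a collagen prolyl hydroxylase, was at 0.61 ± 0.21 (edgeR adjusted p = 0.213).

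Markers of other cells stood beside the lower IDH1 level. The summed level of 8 fibroblast and matrix genes was 469 to 825 CPM in control, 901 to 1879 CPM in SUC1, 954 to 1108 CPM in SUC2 and 1036 to 1478 CPM in SUC3, with all 8 genes positive in the pooled diets. The macrophage and immune sum was 17.8 to 29.3 CPM in control, 26.4 to 35.5 CPM in SUC1, 41.5 to 55.8 CPM in SUC2 and 23.6 to 24.6 CPM in SUC3, highest in the diet where IDH1 was lowest. All 7 of these genes were positive in the pooled diets, while in SUC3 2 were positive and 5 negative. The fast-fibre sum was 88596 to 135914 CPM in control, 93885 to 111435 CPM in SUC1, 75152 to 83913 CPM in SUC2 and 81521 to 104004 CPM in SUC3, so SUC1 and SUC3 overlapped control. Of its 11 genes, 5 were negative in SUC1, 11 in SUC2, 9 in SUC3 and 9 in the pooled diets. No marker in these 3 lists was at 0, and of 65 marker genes tested edgeR called 0 in each diet, with 16 at an unadjusted p under 0.05 in the pooled diets, while DESeq2 called 9 there, all higher. These are 24.6% and 13.8% of the markers, against 14.5% and 3.54% of all genes by the same criteria. As a description, IDH1 had r = -0.23 with the fibroblast and matrix sum over the 12 libraries, and 0.62 on deviations from the diet means. With the macrophage and immune sum it had r = -0.59, and 0.39 on deviations from the diet means. With the fast-fibre sum the values were 0.71 and 0.45. The part of these cells in the IDH1 level was not tested.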

How the data were processed

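The authors' deposited table held whole-number read counts and FPKM values per gene for 12 libraries. The counts were used as deposited; recomputing the deposited FPKM from counts, gene lengths and column totals gave a largest relative difference of 3.6e-14. No source used here names the aligner or counter. GRCm38 and mm10, both mouse assemblies, stand in the submitters' processing notes, while the table carries sheep genes and chromosomes, so coordinates are printed as deposited. For names, 20874 GeneIDs were matched to the gene table of ARS-UI_Ramb_v3.0.

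Genes were kept with edgeR's filterByExpr by diet (13319 genes; 13145 for the slope) and scaled by TMM (factors 0.857 to 1.10). The 12 libraries entered 1 quasi-likelihood model by diet in edgeR 4.0.16 under R 4.3.3 (8 residual degrees of freedom, biological coefficient of variation 0.279). P-values were two-sided and adjusted by Benjamini-Hochberg over all genes, with a threshold of 0.05. The SE is the size of the log2 fold change divided by the root of its F statistic. DESeq2 1.42.0 and limma-trend (limma 3.58.1, log2 of FPKM plus 1 or 0.1) were alternatives, with other scalings, filters, a replicate block and each library left out. The scripts were tested on simulated counts. Levels are means ± SD. Counting errors are Poisson errors and cover counting only. Correlations used log2 CPM and 100000 permutations (all orders for 8 libraries); likeness used log2 CPM with a prior count of 2.

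The members and gene lists were chosen with earlier results of these data known. Named were all members, the genes next to them, the 5 genes most like IDH1, IDH2 and IDH3A, and, from the pathway lists, genes by smallest p in the pooled comparison (up to 4 per list, given in part) and genes called by DESeq2. Some genes the rule named are not reported here. Marker lists are given as sums. Of 70 marker genes listed, those not matched by symbol or description were not used here.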

Additional observations from a re-analysis of the deposited data

How the results depend on the processing

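The count of IDH2, IDH3A, IDH3B and IDH3G called was 0 under all 23 alternatives run, as was the count of members called among the succinate diets. No IDH3 ratio passed under 14 alternatives. Of the 15 correlations 3 to 4 passed by Pearson's r under 13 alternatives, the fourth being IDH2 with IDH3G (without control replicate 1) or IDH3A with the slow-fibre sum (without SUC3 replicate 2), and 1 (IDH3B with IDH3G) over the 8 libraries left without the 4 that stand apart. Fits of only the groups compared hold the same libraries for the pooled diets and the slope and gave no further value. The same replicate number did not pair libraries (correlations of deviations from -0.17 to 0.17). With the replicate block, the pooled log2 fold change was -1.14 for IDH1 and 0.30 for IDH2, and no member's call moved, while genes called in SUC2 went from 191 to 122. Genes called by DESeq2 against edgeR were 70 against 0 in SUC1, 841 against 191 in SUC2, 241 against 1 in SUC3 and 471 against 0 in the pooled diets; they were 53 against 0 for SUC2 against SUC1, 69 against 0 for SUC3 against SUC1, 239 against 2 for SUC3 against SUC2, and 55 against 0 for the slope. Leaving out single libraries, SUC1 gave 0 to 7 genes, SUC3 0 to 11, SUC3 against SUC2 1 to 66 (66 without SUC3 replicate 2) and the pooled diets 0 to 70 (70 without SUC2 replicate 2, 60 without control replicate 1). For SUC2, leaving out SUC3 replicate 2 gave 332 genes, SUC3 replicate 3 gave 115, SUC2 replicate 1 gave 82, SUC1 replicate 2 gave 80, and 0 were left on dropping SUC2 replicate 3 or either of control replicates 2 and 3. Without the 4 libraries that stand apart, SUC2 gave 6 and the pooled diets 26; SUC2 is then 1 library, assumed to vary like the other groups. With the other scalings, filters and limma-trend the pooled diets gave 0 to 99 (99 without a filter) and SUC3 0 to 4.

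IDH1 against control, a sign its choice fixes, was at -1.27 to -0.95 for the pooled diets; with limma-trend on log2(FPKM + 1), a scale that understates low genes, SUC2 was at -1.35. IDH1 in SUC3 against SUC1, which is near 0, was 0.036 with upper quartile scaling, 0.092 with library totals, 0.025 with only genes averaging 5 CPM or more, 0.0064 in the pairwise fit, 0.052 and 0.055 with limma-trend (FPKM plus 1 and plus 0.1) and -0.24 to 0.23 over single left-out libraries. The slope of IDH1 was -0.12 to 0.21 over single left-out libraries and -0.0058 without the 4 libraries. For the IDH3 subunits, single left-out libraries gave, in SUC2, -0.50 to 0.044 (IDH3A), -0.35 to 0.082 (IDH3B) and -0.23 to 0.035 (IDH3G), and in the pooled diets -0.29 to 0.21, -0.27 to 0.16 and -0.14 to 0.12. Without the 4 libraries the SUC2 values, from its replicate 1 alone, were 0.42, 0.23 and 0.17 and the pooled values 0.27, 0.16 and 0.14. IDH3G in the pooled diets was 0.022 with library totals and 0.014 with either limma-trend fit. Among single left-out libraries, control replicate 1 turned the sign of each IDH3 subunit in both comparisons. IDH3G also turned without SUC2 replicate 2 in both, and without SUC1 replicate 1 or SUC3 replicate 2 in the pooled diets; the cause was not tested.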

Other observations

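Each member was also set against the summed levels of 7 other marker lists over the 12 libraries, 35 relations chosen and tested after the values had been seen. IDH2 and the endothelial sum had r = 0.844 (permutation test, adjusted p = 0.015) and rho = 0.797 (adjusted p = 0.0654), so 1 relation passed by Pearson's r and 0 by Spearman's rho. The relation of IDH2 had r = 0.737 without the 2 libraries farthest from the median (SUC3 replicate 1 and SUC2 replicate 3) r = 0.858 on deviations from the diet means and r = 0.750 over the 8 libraries left without the 4 that stand apart. The relations of IDH1 are a description, since the step between control and succinate libraries chose IDH1. The largest were with the fast-fibre sum (r = 0.712, and 0.446 on deviations from the diet means) and the adipocyte sum (r = -0.70, and -0.56 on deviations from the diet means). The IDH3 subunits had no relation that passed, and that of IDH3G with the smooth muscle and pericyte sum (r = 0.705) was 0.0889 without SUC2 replicate 2 and control replicate 2.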
